A study of Dorcoceras hygrometricum with 9 samples.

Results

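The genes described here are 6 genes of chlorophyll metabolism in leaves of Boea hygrometrica (named Dorcoceras hygrometricum in the labels), out of 24182 genes with a read in at least 1 library. They were taken by gene ID, and their names are those of the best database match in the deposited files. For synthesis these are the magnesium-protoporphyrin IX monomethyl ester cyclase gene Bhs32_068V1.1, the magnesium chelatase gene Bhs68_009V1.1 and the geranylgeranyl reductase gene Bhs4002_004V1.1. For breakdown these are the pheophorbide a oxygenase gene Bhs1906_004V1.1, the gene Bhs427_016V1.1 named senescence-inducible chloroplast stay-green protein 1, and a second stay-green gene, Bhs80_031V1.1. Leaves of potted plants were compared in 3 water states with 3 libraries each: hydrated (titled HD), 70% relative water content (RWC, the water in a leaf as a share of what it holds when full) and 10% RWC. The labels name no strain, plant age, drying time or number of plants. The series calls the libraries of a state biological replicates, and the labels do not say which came from separate plants. The tests therefore judge differences against the variation between these libraries, which may not be that between plants.

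Chlorophyll is built in the chloroplast from glutamate through a chain of porphyrins. Magnesium chelatase places the magnesium ion and so directs the porphyrin to chlorophyll instead of haem, the cyclase closes the extra ring of the molecule, and geranylgeranyl reductase makes the phytol tail that anchors the pigment in the membrane. In breakdown, as worked out mainly in Arabidopsis, a stay-green protein takes the magnesium out of chlorophyll a, and pheophorbide a oxygenase opens the ring after the tail has been removed. Resurrection plants are known either to dismantle chlorophyll on drying or to keep much of it in the dry leaf, and Boea hygrometrica is usually counted among those that keep it. Transcripts were measured here, not pigment or enzyme activity.

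The 14585 genes that were tested held from 6654601 to 7423965 reads per library. Values are in CPM, that is, reads of a gene per library after scaling all libraries to the same size, and errors are the SD over 3 libraries. Chi-square per gene between replicates 2 and 3 of a state was 1.26 to 1.37, near the value of sampling noise alone, while replicate 1 stood apart from both (4.67 to 8.05). Replicates 2 and 3 may therefore be technical repeats, which would leave 2 samples per state and make the p-values given below too small. With replicates 2 and 3 summed as 1 sample, every call of the 6 genes held, with edgeR adjusted p from 1.45e-10 for the chelatase at 10% RWC against hydrated leaves to 0.0283 for Bhs80_031V1.1 at 10% against 70% RWC. For 5 of the 6 genes, replicate 1 lay between 0.26 below and 0.06 above the mean of replicates 2 and 3 on the log2 scale. The exception was Bhs80_031V1.1, with few reads, at 0.55 above in hydrated leaves and 0.74 below at 70% RWC. Markers of leaf mesophyll, the tissue that holds most chloroplasts, were present in hydrated leaves, where 13 marker genes took 4.74% to 6.19% of all CPM.

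The 3 synthesis genes fell at both drying states against hydrated leaves, and the breakdown genes split. Pheophorbide a oxygenase and stay-green protein 1 rose, while the second stay-green gene fell. All 6 genes passed the test in both comparisons and in that between the drying states (edgeR's quasi-likelihood test, p under 0.05 after Benjamini-Hochberg adjustment over all 14585 genes). This count says little alone, since 70.5% of all tested genes passed between 70% RWC and hydrated leaves, 83.9% between 10% RWC and hydrated leaves and 76.8% between the drying states. With a change of at least 2-fold also required, 4 of the 6 were lower and 2 higher at 70% RWC, where 20.5% of all tested genes were lower and 15.1% higher. At 10% RWC 4 were lower and 1 higher by that rule, beside 29.7% and 25.9% of all tested genes. From 70% to 10% RWC 5 were lower and 1 higher, beside 39.6% and 37.1% of all tested genes. Of these, 3 were lower by at least 2-fold and 0 higher, beside 25.0% and 18.6%. Both comparisons against hydrated leaves use the same 3 hydrated libraries.

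The cyclase gene Bhs32_068V1.1 stood at 2644, 2661 and 2658 CPM in hydrated replicates 1, 2 and 3, at 372, 362 and 354 CPM at 70% RWC and at 564, 545 and 535 CPM at 10% RWC. All hydrated libraries were far above the dried ones, 10% RWC lay above 70% RWC, and no groups overlapped. Its mean of 2654 ± 8.98 CPM in hydrated leaves was 7.32-fold that of 70% RWC, a log2 fold change of -2.87 ± 0.06 (SE; edgeR adjusted p = 5.25e-17). At 10% RWC it was 4.85-fold below hydrated leaves (log2 -2.28 ± 0.06, edgeR adjusted p = 4.29e-16). It was the only one of the 6 genes to rise from 70% to 10% RWC, by 0.59 ± 0.06 on the log2 scale or 1.51-fold (edgeR adjusted p = 5.10e-08). At 70% RWC 798 genes had a larger decrease.

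The magnesium chelatase gene Bhs68_009V1.1, whose KEGG match is subunit H, the large subunit that binds the porphyrin, stood at 1802, 1867 and 1842 CPM in hydrated leaves. It stood at 284, 294 and 291 CPM at 70% RWC and at 46.3, 55.5 and 55.8 CPM at 10% RWC. Every library of a drier state was below every library of a wetter one. The gene fell 6.35-fold at 70% RWC (log2 -2.67 ± 0.07, edgeR adjusted p = 8.89e-16) and 34.96-fold at 10% RWC (log2 -5.13 ± 0.08, edgeR adjusted p = 1.09e-18). Between the drying states it fell a further 5.51-fold, the largest difference between those states among the 6 genes (edgeR adjusted p = 8.62e-15).

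The geranylgeranyl reductase gene Bhs4002_004V1.1 stood at 943, 1083 and 1072 CPM in hydrated leaves, at 71.1, 80.5 and 76.3 CPM at 70% RWC and at 32.9, 38.6 and 35.7 CPM at 10% RWC. As for the chelatase, the groups did not overlap and the order was hydrated, 70% RWC, 10% RWC. Its decrease at 70% RWC, 13.6-fold (log2 -3.77 ± 0.08, edgeR adjusted p = 5.71e-17), was the largest among the 6 genes there, and 463 of the tested genes fell more. At 10% RWC it was 28.9-fold lower than in hydrated leaves (log2 -4.85 ± 0.09, edgeR adjusted p = 3.58e-18) and 2.13-fold lower than at 70% RWC. A gene with a like name, Bhs630_011V1.1, had too few reads in every library for a test, with a mean of 1.02 CPM in hydrated leaves.

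The pheophorbide a oxygenase gene Bhs1906_004V1.1 stood at 253, 314 and 288 CPM in hydrated leaves, at 838, 899.7 and 930.1 CPM at 70% RWC and at 416, 488 and 484 CPM at 10% RWC. It was highest at 70% RWC and intermediate at 10% RWC, with no overlap of groups. The increase was 3.12-fold at 70% RWC (log2 1.64 ± 0.08, edgeR adjusted p = 8.65e-12) and 1.62-fold at 10% RWC (log2 0.70 ± 0.08, edgeR adjusted p = 4.44e-07). From 70% to 10% RWC it fell 1.92-fold (edgeR adjusted p = 1.15e-08).

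Stay-green protein 1, gene Bhs427_016V1.1, stood at 38.95, 37.6 and 38.5 CPM in hydrated leaves, at 593, 643 and 666 CPM at 70% RWC and at 337, 399 and 401 CPM at 10% RWC. It followed the same order as the oxygenase, lowest in hydrated leaves and highest at 70% RWC, again with no overlap. It rose 16.5-fold at 70% RWC (log2 4.05 ± 0.08, edgeR adjusted p = 4.22e-17), and 340 genes had a larger increase. At 10% RWC it was 9.87-fold above hydrated leaves (log2 3.30 ± 0.08, edgeR adjusted p = 2.57e-16) and 1.67-fold below 70% RWC (edgeR adjusted p = 4.19e-08).

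The second stay-green gene, Bhs80_031V1.1, was low throughout. It had 53, 26 and 38 reads in hydrated leaves, 6, 13 and 6 reads at 70% RWC and 3 reads in each library at 10% RWC. These are 6.77, 3.69 and 5.59 CPM, then 0.835, 1.903 and 0.884 CPM, and 0.399, 0.421 and 0.405 CPM. Every hydrated library lay above the dried ones, and every 70% RWC library above those of 10% RWC. The gene fell at 70% RWC (log2 -2.15 ± 0.32, edgeR adjusted p = 1.32e-05) and at 10% RWC (log2 -3.66 ± 0.40, edgeR adjusted p = 1.60e-07) against hydrated leaves. Between the drying states the log2 difference was -1.52 ± 0.56 (edgeR adjusted p = 0.0204). That call was lost without 70% RWC replicate 2 (log2 -1.04, edgeR adjusted p = 0.139), and over all alternatives the adjusted p ranged from 0.00995 to 0.139.

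**Figure D1:**
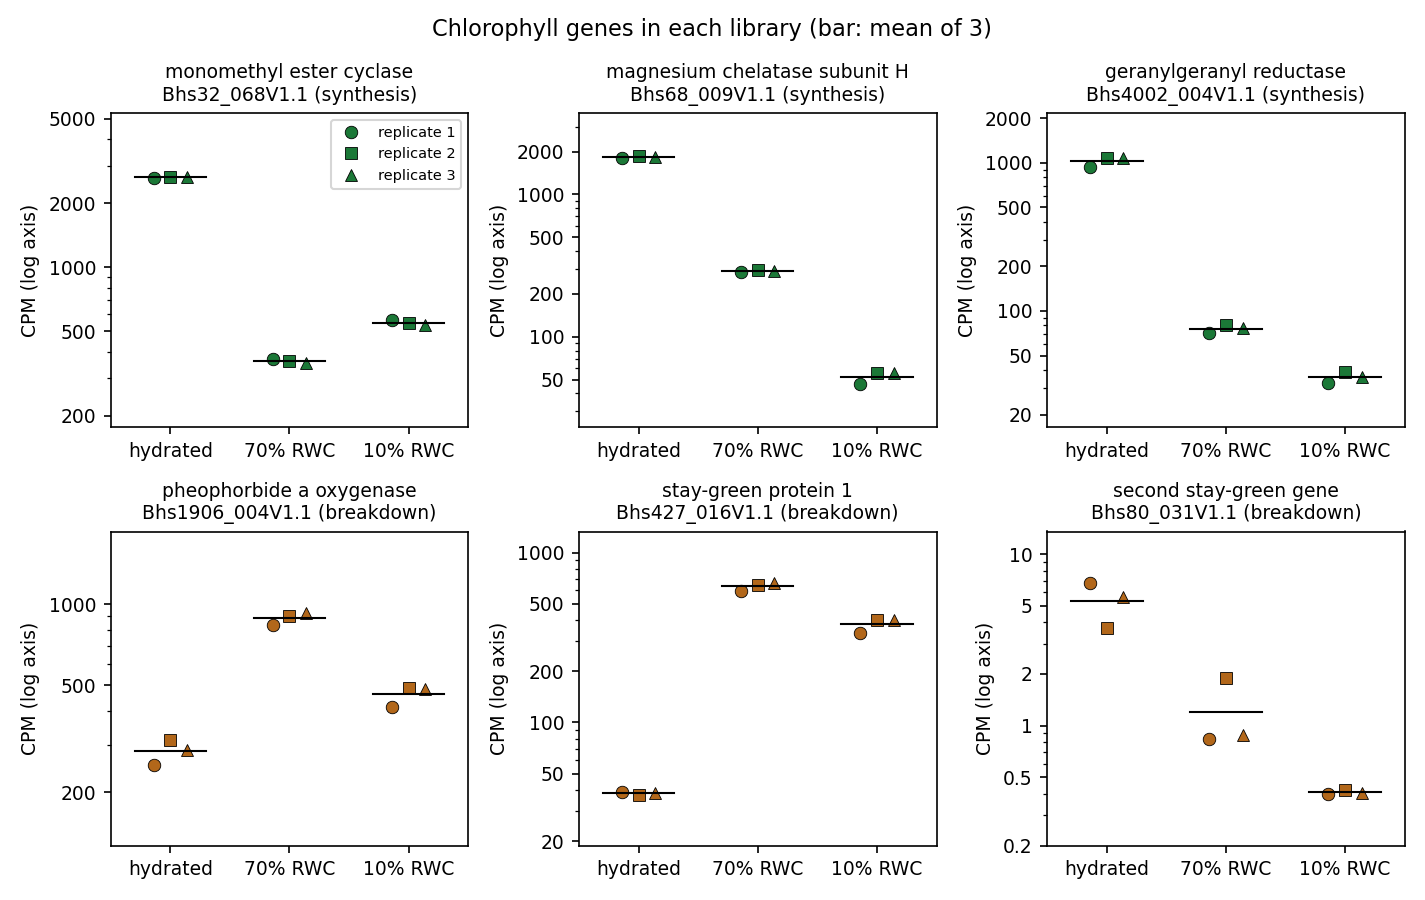
Level of each of the 6 genes in every library, in CPM on a log axis, for hydrated leaves, 70% RWC and 10% RWC (points: libraries; bar: mean of 3). The synthesis genes in the upper row drop from hydrated leaves to 70% RWC, pheophorbide a oxygenase and stay-green protein 1 peak at 70% RWC, and the second stay-green gene falls from 5.35 to 0.408 CPM.

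The 2 stay-green genes therefore moved in opposite directions, and their ratio is given per library as the difference of their log2 CPM. A prior count of 2 is added to the reads there, which pulls the ratio toward 0 where reads are few. The dried states, with the fewest reads of the second gene, are affected most. The differences from hydrated leaves given below are therefore smaller than edgeR's changes of the 2 genes give. In hydrated leaves stay-green protein 1 had 305, 265 and 262 reads beside the 53, 26 and 38 of the second gene. The log2 ratio was 2.82 ± 0.40 (SD, n = 3) in hydrated leaves, 8.81 ± 0.53 at 70% RWC and 9.10 ± 0.13 at 10% RWC. Every dried library lay above every hydrated one. The difference from hydrated leaves was 5.99 at 70% RWC and 6.28 at 10% RWC, each with an exact two-sided permutation p of 0.1, the smallest that 3 libraries against 3 allow (0.15 after Benjamini-Hochberg adjustment over 3 comparisons). This test could not reach 0.05, and with groups that do not overlap its p is fixed at that floor, so it adds no support to the difference. Between the drying states the ratios overlapped and differed by 0.30 (exact permutation p = 0.6). The overlap and the small difference depend on the prior count, given the few reads of the second gene there. In plain reads stay-green protein 1 had 4262, 4391 and 4520 beside 6, 13 and 6 at 70% RWC. At 10% RWC it had 2532, 2843 and 2968 beside 3 in each library. By those reads its ratio was higher in every 10% RWC library than in any at 70% RWC, which was not tested. The gene models are 303 codons for stay-green protein 1 and 233 codons for the second gene. The deposited files give neither gene a KEGG match.

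Levels per length show which transcripts were abundant beside each other. In hydrated leaves the order in CPM per kilobase of coding length was the cyclase at 2168 ± 7.33, geranylgeranyl reductase at 737 ± 55.8, chelatase subunit H at 445 ± 7.93, pheophorbide a oxygenase at 213 ± 22.6, stay-green protein 1 at 42.2 ± 0.757 and the second stay-green gene at 7.65 ± 2.22. No neighbours in that order overlapped. At 70% RWC stay-green protein 1 (697 ± 41.0) and pheophorbide a oxygenase (663 ± 34.8) headed the order, and their libraries overlapped. The cyclase followed at 296 ± 7.49, then the chelatase at 70.1 ± 1.30 and the reductase at 54.2 ± 3.37. At 10% RWC the cyclase (448 ± 12.1) and stay-green protein 1 (417 ± 39.8) were again in overlapping ranges, above the oxygenase at 345 ± 30.3. The reductase stood at 25.5 ± 2.02 and the chelatase at 12.7 ± 1.30, so both lay below all the others except the second stay-green gene, at 0.584 ± 0.0157.

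**Figure D2:**
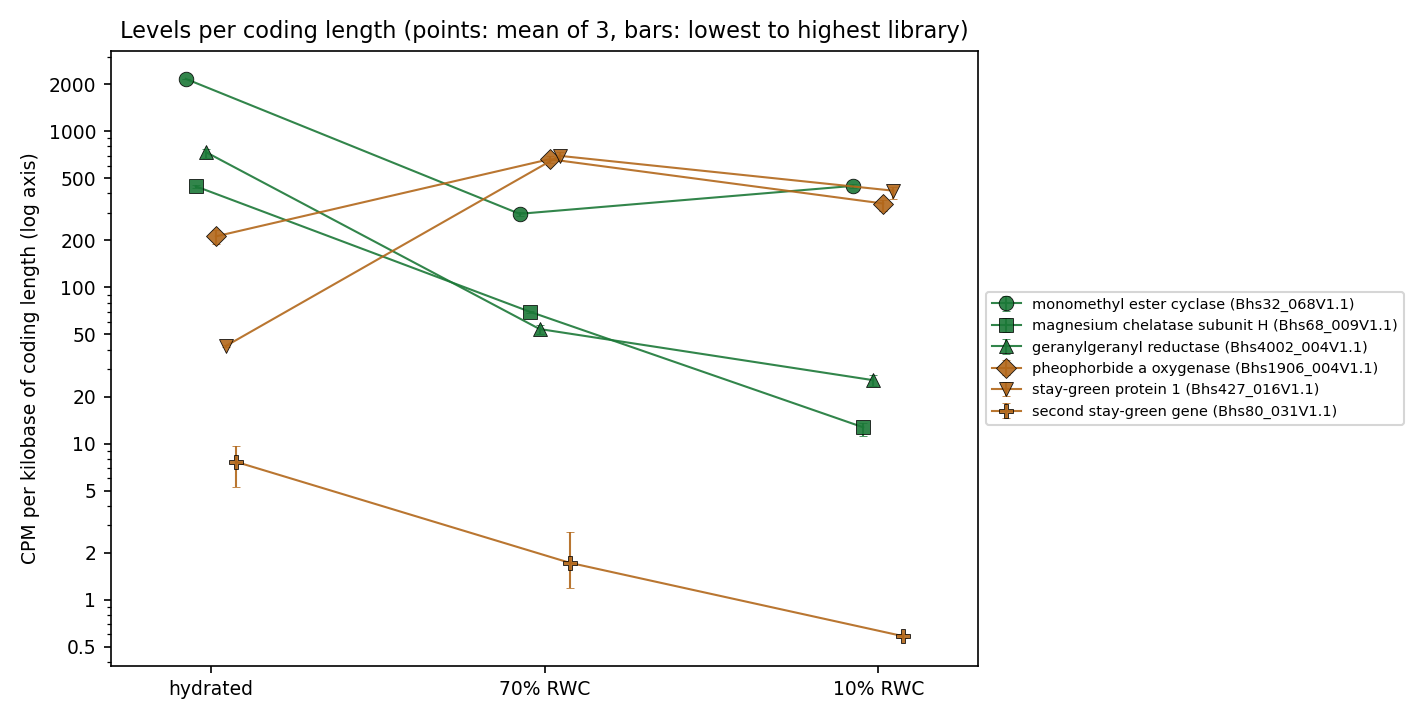
Mean level per kilobase of coding length for the 6 genes in each water state (log axis; bars: lowest to highest of 3 libraries; lines join the means of 1 gene). The synthesis genes lead in hydrated leaves, where the cyclase is at 2168 CPM per kilobase, and stay-green protein 1 and pheophorbide a oxygenase lead at 70% RWC, at 697 and 663.

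Set against each other within a library, the reads of the 3 breakdown genes over those of the 3 synthesis genes gave a ratio of 0.0555, 0.0633 and 0.0596 in hydrated replicates 1, 2 and 3. The ratio was 1.97, 2.095 and 2.22 at 70% RWC and 1.17, 1.39 and 1.41 at 10% RWC. All hydrated values were far below the others, and 70% RWC was above 10% RWC in every library. In hydrated leaves there were thus 16.9 ± 1.11 synthesis reads per breakdown read, against 0.479 ± 0.0281 at 70% RWC and 0.760 ± 0.0811 at 10% RWC. This ratio is a description of the reads and is not corrected for gene length. Over all tested genes of the wider lists below, it was 0.0706, 1.11 and 0.792 in the same order, so at 10% RWC it lay below 1 instead of above.

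The composition of the reads also differed between the drying states. Cyclase reads per chelatase read were 1.45 ± 0.0211 in hydrated leaves and 1.25 ± 0.0509 at 70% RWC, and 10.5 ± 1.43 at 10% RWC. Cyclase reads per reductase read were 2.58 ± 0.195, 4.79 ± 0.39 and 15.4 ± 1.55. The cyclase took 48.1% of the reads of the 3 synthesis genes in hydrated leaves, 49.8% at 70% RWC and 86.1% at 10% RWC. Among the breakdown genes, stay-green protein 1 took 11.7%, 41.6% and 45.0% of the reads, with nearly all of the rest from pheophorbide a oxygenase.

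**Figure D3:**
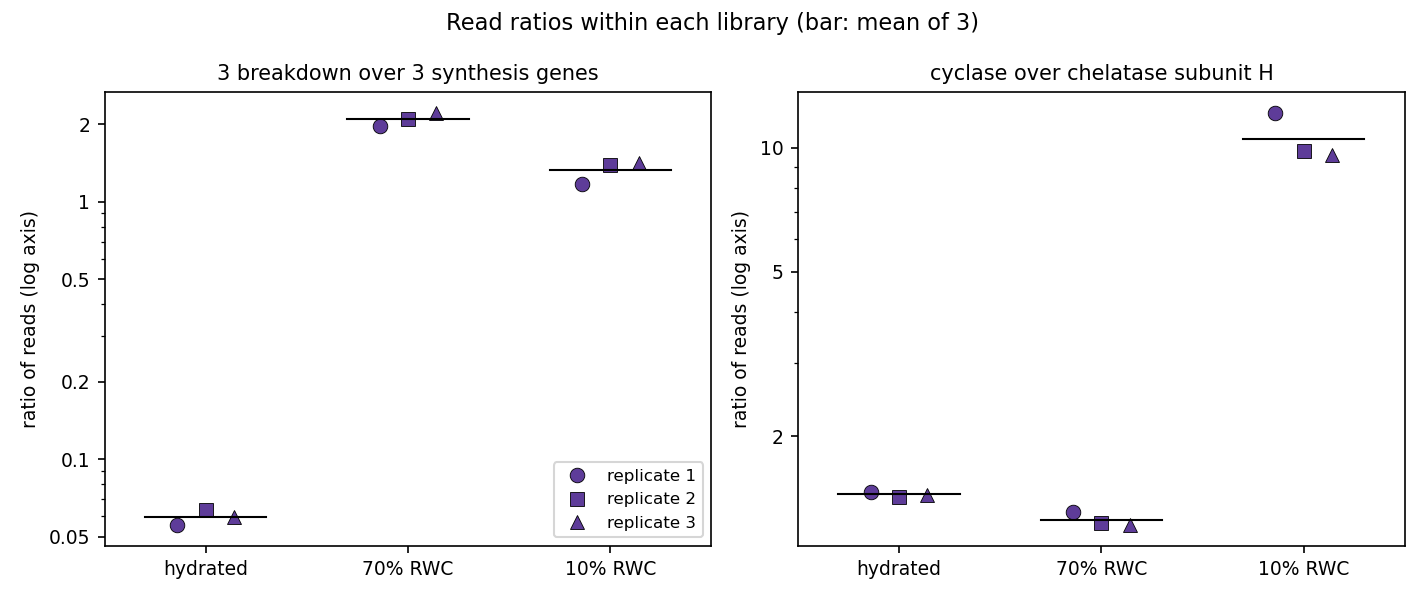
Ratios of reads within each library (log axis, points: libraries, bar: mean of 3). The ratio of breakdown to synthesis reads goes from 0.0595 in hydrated leaves to 2.09 at 70% RWC and 1.32 at 10% RWC, and that of cyclase to chelatase reads from 1.45 and 1.25 to 10.5 at 10% RWC.

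The wider synthesis list, chosen by search words in the descriptions, held 18 genes, of which 16 were tested. The untested ones were Bhs630_011V1.1 and a porphobilinogen deaminase, Bhs2753_001V1.1, with a mean of 0.291 CPM at 70% RWC and no reads in the other states. At 70% RWC 14 fell, 13 of them at least 2-fold, and 1 rose, where 35.9% of all tested genes fell and 34.6% rose. The list's median log2 fold change was -1.75, beside -0.01 over all tested genes. At 10% RWC 15 fell and 1 rose against hydrated leaves (41.5% and 42.4% of all tested genes), with a median of -1.62 beside 0.01. Without the 3 genes described above, 11 of 13 fell at 70% RWC and 12 of 13 at 10% RWC. Between the drying states 6 of 16 were higher and 7 lower at 10% RWC, with a median of -0.12 beside -0.05. These counts were near the shares of all tested genes, 37.1% and 39.6%. Over the alternatives for the test, scaling and libraries those counts ran from 4 to 6 and from 6 to 8, with 4 higher and 8 lower without 70% RWC replicate 1. The call of Bhs10224_001V1.1 was lost in 7 of 16 alternatives and that of Bhs19_078V1.1 in 5.

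Genes of the early steps, which lead to the porphyrin and serve haem as well, included both rising and falling genes at 10% RWC. Glutamyl-tRNA reductase Bhs865_008V1.1, the enzyme of the committed step, went from 907 ± 24.1 CPM in hydrated leaves to 199 ± 13.3 at 70% RWC and 368 ± 12.9 at 10% RWC. Like the cyclase, it was therefore lowest at 70% RWC (log2 0.89 ± 0.06 at 10% against 70% RWC, edgeR adjusted p = 9.62e-10). Glutamate-1-semialdehyde aminomutase Bhs911_008V1.1, the next enzyme, fell from 101.5 ± 3.20 to 47.96 ± 5.09 CPM at 70% RWC and stood at 176.3 ± 16.02 CPM at 10% RWC. It was the 1 gene of the list that was higher at 10% RWC than in hydrated leaves (log2 0.80 ± 0.08, edgeR adjusted p = 5.33e-08). Porphobilinogen deaminase, which joins the pyrrole units into a chain, had a strongly falling gene, Bhs3_041V1.1 (152 ± 3.68, 11.7 ± 0.729 and 17.1 ± 2.48 CPM), and a weakly falling one, Bhs10224_001V1.1 (45.3 ± 1.29, 30.6 ± 1.71 and 36.2 ± 2.40 CPM). A uroporphyrinogen decarboxylase, Bhs1929_008V1.1, was not called at 70% RWC (log2 0.12 ± 0.08, edgeR adjusted p = 0.151) and fell by 0.39 on the log2 scale at 10% RWC. Coproporphyrinogen oxidase Bhs880_002V1.1 (log2 -1.25 and -1.26 at 70% and 10% RWC) and protoporphyrinogen oxidase Bhs119_056V1.1 (log2 -1.33 and -1.72), which finish the porphyrin ring system, fell at both states.

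Among the genes around the magnesium step, chelatase subunit I Bhs19_078V1.1, which drives the insertion with ATP, fell from 286 ± 16.5 to 74.3 ± 8.08 and 63.3 ± 7.49 CPM. Its log2 fold change at 10% RWC was -2.18 ± 0.09, beside -5.13 ± 0.08 for subunit H; the difference between the subunits was not tested. The tetrapyrrole-binding protein gene Bhs5_141V1.1, of the GUN4 family that stimulates the chelatase, went from 308 ± 27.2 to 51.0 ± 6.97 and 21.6 ± 3.08 CPM and so kept falling between the drying states, as subunit H did. Protochlorophyllide reductase Bhs200_106V1.1, the light-dependent enzyme after the cyclase, fell from 972 ± 21.8 to 97.5 ± 6.42 and 98.1 ± 4.43 CPM. Of the genes named chlorophyll synthase, the enzyme that attaches the tail, Bhs3174_009V1.1 was the 1 gene of the list that rose at 70% RWC, from 105.6 ± 3.10 to 162 ± 11.2 CPM (log2 0.62 ± 0.07, edgeR adjusted p = 5.42e-07). It then stood at 65.5 ± 4.96 CPM at 10% RWC, below hydrated leaves (log2 -0.69). The others of that name carry KEGG matches to other enzymes. Bhs51_011V1.1, matched to chlorophyllide a oxygenase, fell from 244 ± 13.1 to 83.3 ± 4.33 and 98.9 ± 6.90 CPM, and Bhs222_046V1.1, matched to a solanesyltransferase, from 26.3 ± 4.49 to 11.6 ± 2.09 and 9.16 ± 0.496 CPM.

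The breakdown list held 8 genes, all tested, including the 3 described above. At 70% RWC 4 rose and 4 fell, with a median log2 fold change of -0.02, where 34.6% of all tested genes rose and 35.9% fell. At 10% RWC 5 rose and 3 fell against hydrated leaves, with a median of 0.88 (42.4% and 41.5% of all tested genes). A second pheophorbide a oxygenase gene, Bhs4952_002V1.1, rose from 88.8 ± 5.26 to 192 ± 6.84 CPM at 70% RWC (log2 1.12 ± 0.07) and stood at 185 ± 9.27 CPM at 10% RWC (log2 1.06 ± 0.07). Chlorophyll b reductase Bhs32_145V1.1, which starts the conversion of chlorophyll b to chlorophyll a, rose from 142 ± 4.79 to 192 ± 9.75 CPM and then to 360.0 ± 2.88 CPM, so that its highest level was at 10% RWC. Red chlorophyll catabolite reductase Bhs2186_007V1.1, which acts right after the oxygenase, went the other way, from 51.3 ± 5.14 to 23.4 ± 2.51 and 27.2 ± 4.98 CPM (log2 -1.13 ± 0.12 and -0.92 ± 0.12).

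Chlorophyllases can remove the tail in the test tube. Chlorophyllase-2 Bhs288_015V1.1 fell from 37.6 ± 3.86 to 27.1 ± 3.82 and 27.2 ± 2.69 CPM. Chlorophyllase-1 Bhs5730_003V1.1 was low, at 1.16 ± 0.152, 0.439 ± 0.393 and 3.85 ± 0.731 CPM, and rose at 10% RWC (log2 1.72 ± 0.33, edgeR adjusted p = 0.000104). The call of its decrease at 70% RWC (log2 -1.38, edgeR adjusted p = 0.0286) was lost in 5 of 16 alternatives, with log2 fold changes of -1.39 to -0.95 in those 5. In edgeR's test these were the fits with replicates 2 and 3 alone (edgeR adjusted p = 0.124), without hydrated replicate 2 (0.0526) or 3 (0.0750), and without 70% RWC replicate 1 (0.131) or 2 (0.0962).

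**Figure D4:**
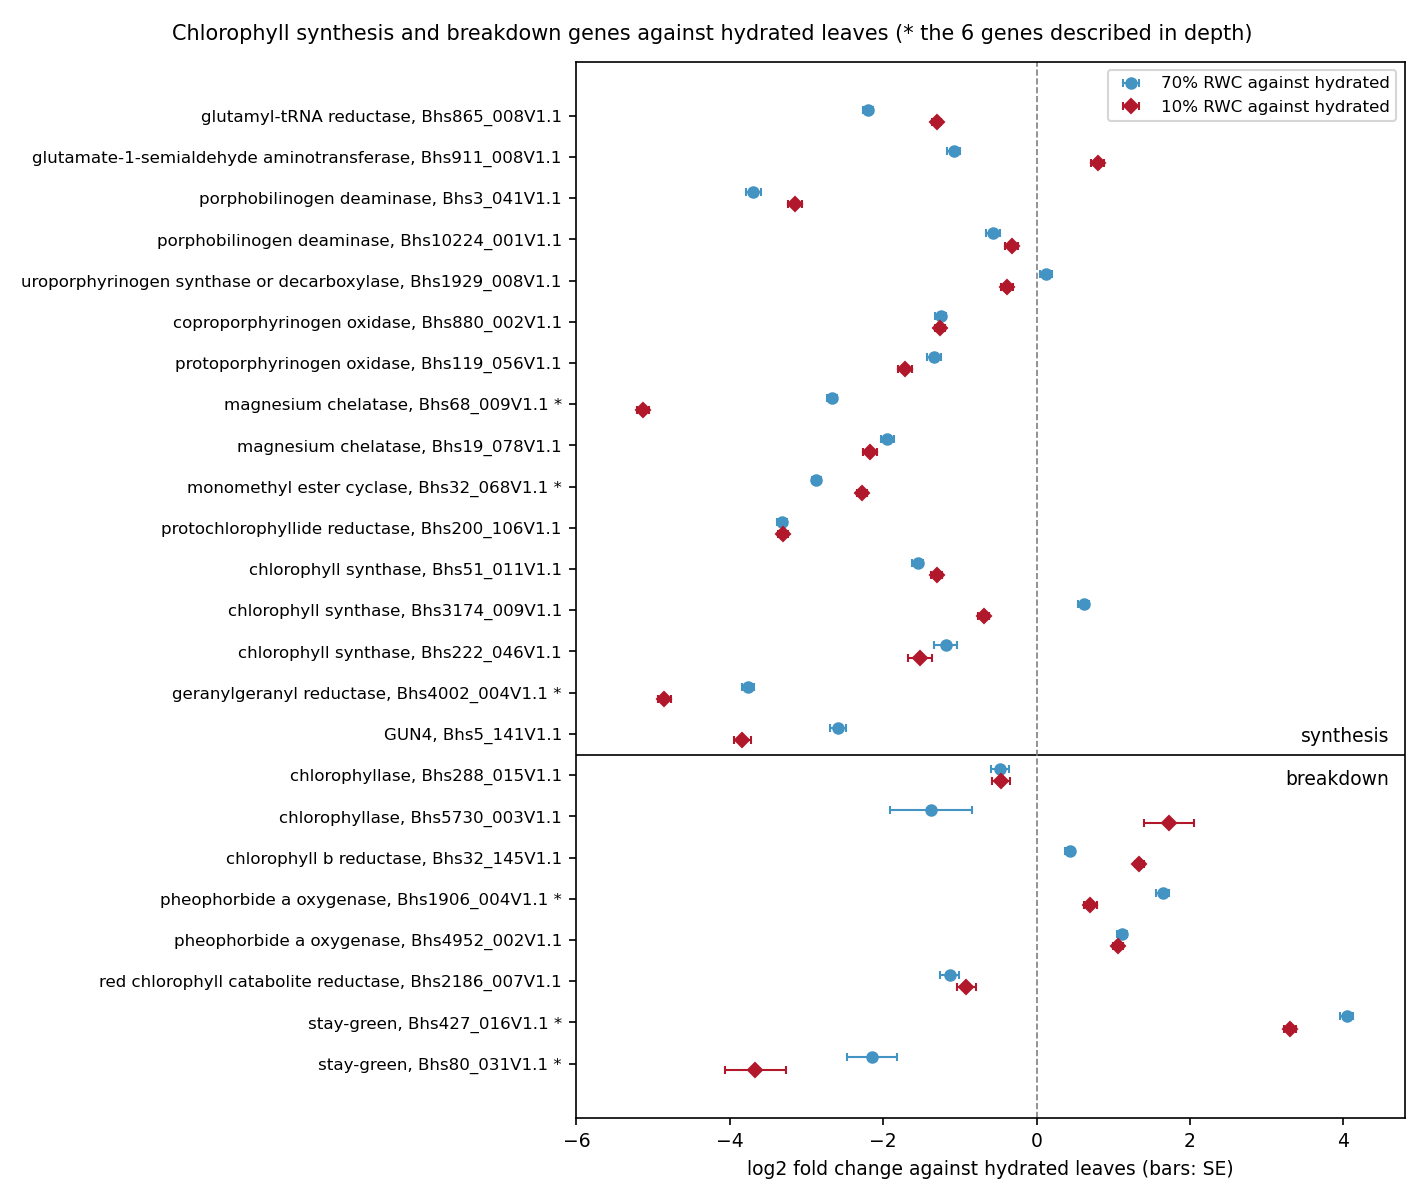
Log2 fold change against hydrated leaves of the tested genes of the synthesis list (upper block) and breakdown list (lower block) at 70% RWC (circles) and 10% RWC (diamonds), with bars of 1 SE. Most synthesis genes lie left of 0 at both states, with chlorophyll synthase Bhs3174_009V1.1 at 0.62 at 70% RWC and the aminomutase Bhs911_008V1.1 at 0.80 at 10% RWC to the right, and the breakdown genes lie on both sides.

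Other leaf transcripts moved beside these genes. The chlorophyll-binding antenna genes, which hold the pigment, fell for 9 of 9 at both states, with medians of -3.08 and -5.01 on the log2 scale. Of 13 mesophyll markers, 7 of which are these same antenna genes, 12 fell at each state against hydrated leaves (35.9% and 41.5% of all tested genes fell), and their summed share went from 4.74% to 6.19% of CPM in hydrated libraries to 0.527% to 0.685% at 70% RWC and 0.241% to 0.283% at 10% RWC. The 3 guard cell markers also fell, from 0.00348% to 0.00402% in hydrated libraries to 0.00144% to 0.00159% at 70% RWC and 0.000666% to 0.000851% at 10% RWC. Of 9 tested epidermis markers 6 fell and 1 rose at each state, and the summed share went from 0.0726% to 0.0830% down to 0.0128% to 0.0137% and 0.00884% to 0.0106%. The median log2 fold change of these 9 was -0.93 at 70% RWC and -1.15 at 10% RWC. The most abundant of them in hydrated leaves, a 3-ketoacyl-CoA synthase (Bhs4608_002V1.1, named after its values were seen), went from 478 to 4.42 and 0.356 CPM. The part of these shifts in the values of the 6 genes was not tested, and in whole leaves fewer cells of a type and less RNA per cell cannot be told apart. Of the 4 genes named for senescence, the program in which leaves yellow, all 4 rose at 70% RWC (stay-green protein 1 is 1 of them), where 34.6% of all tested genes rose. At 10% RWC 3 were called above hydrated leaves and 1 below (42.4% and 41.5% of all tested genes).

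The genes with the most similar course over the 9 libraries were sought among 4525 well expressed and informatively named genes outside both lists, by the root-mean-square difference of log2 CPM after centring each gene. Nearest to the cyclase were a flavonoid glucosyltransferase, Bhs3036_008V1.1 (0.113), a chaperonin-60, Bhs539_017V1.1 (0.167), and a chloroplast cytochrome c biogenesis protein, Bhs198_051V1.1 (0.192). Nearest to chelatase subunit H were a Rubisco activase, Bhs151_047V1.1 (0.103), a strictosidine synthase, Bhs1234_011V1.1 (0.155), and an acylamino-acid-releasing enzyme, Bhs13_129V1.1 (0.156). For geranylgeranyl reductase they were an aminomethyltransferase, Bhs771_066V1.1 (0.162), another Rubisco activase gene, Bhs7545_001V1.1 (0.172), and an aquaporin, Bhs316_023V1.1 (0.176).

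For pheophorbide a oxygenase the nearest genes were a lysophosphatidylcholine acyltransferase, Bhs2407_008V1.1 (0.0751), a purple acid phosphatase, Bhs411_010V1.1 (0.0848), and a ClpB-like chaperone, Bhs1515_001V1.1 (0.0971). Within 0.25 of the oxygenase lay 74 genes, against 16 for the chelatase, 8 for stay-green protein 1 and 6 each for the cyclase and the reductase. Courses were centred but not scaled. The oxygenase had the smallest changes of these genes against hydrated leaves, log2 1.64 at 70% RWC and 0.70 at 10% RWC. These counts therefore do not compare how common the shape of each course was. Stay-green protein 1 ran closest to an early light-inducible protein, Bhs11779_003V1.1 (0.102), which went from 35.6 CPM in hydrated leaves to 648 and 393 CPM. A heat shock factor, Bhs826_024V1.1 (0.151), and a multidrug resistance pump, Bhs251_005V1.1 (0.170), followed. Reads covered only 29.3% to 38.6% of the early light-inducible gene model in each library, so its values rest on part of that model. For the second stay-green gene none of the 4525 candidates was within 0.25, although the smallest difference over all tested genes, low ones included, was 0.186. With 3 to 53 reads per library, its log2 CPM is compressed by the prior count of 2 more than that of the candidates. The lack of near candidates therefore does not show that the course of this gene was rare. Its nearest candidates were Bhs1659_006V1.1 (0.297), named for a leucine-rich repeat domain, an alanine aminotransferase, Bhs3302_004V1.1 (0.317), and a glucose-6-phosphate epimerase, Bhs292_030V1.1 (0.326). Among the 6 genes themselves, the chelatase and the reductase were closest (0.597). The 2 genes that rose were 1.18 apart.

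All 6 genes lie on the plus strand of different scaffolds of an assembly of unstated version, and no other gene model overlaps them. The cyclase spans positions 477161 to 478908 of scaffold 32, with 1224 coding bases. Chelatase subunit H spans 110003 to 114842 of scaffold 68 (4131 coding bases), and geranylgeranyl reductase spans 29277 to 30677 of scaffold 4002 as 1 uninterrupted coding stretch of 1401 bases. Pheophorbide a oxygenase spans 21823 to 25243 of scaffold 1906 (1341 coding bases). Stay-green protein 1 spans 280470 to 282452 of scaffold 427 (909 coding bases) and the second stay-green gene 200401 to 201809 of scaffold 80 (699 coding bases). Of the 10 tested genes that flank them, 3 were called in the same direction as their neighbour at 70% RWC against hydrated leaves, 4 in the opposite direction and 3 not at all, where 70.5% of all tested genes were called. At 10% RWC against hydrated leaves the numbers were 4, 5 and 1 (83.9% of all tested genes), and at 10% against 70% RWC 6, 2 and 2 (76.8%).

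Reads covered at least 99.2% of the cyclase model in every library. Coverage of stay-green protein 1 was 84.2% to 88.9% in hydrated leaves and 96.4% to 98.9% in dried leaves, and that of the second stay-green gene was 61.7% to 95.4% in hydrated leaves and 17.3% to 21.0% at 10% RWC. In the authors' deposited table all 6 genes were called in the same direction at 70% RWC against hydrated leaves, and at 10% RWC the 5 genes other than Bhs80_031V1.1, whose deposited value there was not used. For stay-green protein 1 the authors' deposited table gives a log2 fold change of 4.03 at 70% RWC and 3.15 at 10% RWC, and for chelatase subunit H it gives -2.68 and -5.28.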

How the data were processed

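Per the labels' protocols, leaf RNA was taken up in Trizol and sequenced by standard Illumina methods. The authors deposited a file for each of 9 libraries that holds, per the file headers, the uniquely aligned read count of each gene, its length and the percent of it covered. Summed counts equal the header totals in 9 of 9 files, and genes missing from a file were set to 0. The authors' deposited table compares each drying state with hydrated leaves by group means (a normalized signal), by fold (a ratio and log2) and by p-value, raw and adjusted. Aligner, assembly version, counting tool and strandedness were not given in the sources used here, so reads from an antisense transcript cannot be told apart. Reads shared by near-identical copies are not counted as unique, which leaves genes with several copies (stay-green, pheophorbide a oxygenase) uncertain to that extent. All gene lengths are multiples of 3, so length means coding length. The deposited log2 fold change of Bhs80_031V1.1 at 10% RWC rests on a group mean at the table's floor and was not used.

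Counts were tested with edgeR 4.0.16 in R 4.3.3 (filterByExpr, TMM, robust quasi-likelihood, the 9 libraries together with a mean for each state), with Benjamini-Hochberg adjusted p under 0.05 over 14585 genes. SE was taken as the size of the log2 fold change over the root of F. Log2 CPM used a prior count of 2. Ratios and distances were computed in Python 3.11.15, and the permutation test in scipy 1.17.1. The fit was also run on simulated counts of independent libraries, in which far fewer genes changed than were called here. It called 54% of genes simulated at 1.5-fold and 96% at 2-fold. That simulation cannot show how the fit behaves if replicates 2 and 3 are technical repeats. The 6 genes and all lists were chosen with earlier results of these data known. Named are the 6 genes, the tested genes of both lists and the 3 nearest genes of each of the 6 with a mean of at least 20 CPM, and up to 2 called genes of highest mean CPM from each other list. Alternatives were other scaling, no filter, DESeq2 1.42.0, a replicate block, replicates 2 and 3 alone or summed, each library left out, lists by KEGG match (E value at most 1e-50, chosen after seeing the data), covered length, and the ratio over whole lists.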

Additional observations from a re-analysis of the deposited data

How the results depend on the processing

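Each of the 6 genes was refitted under 16 alternatives per comparison, and their calls and directions held except for Bhs80_031V1.1 at 10% against 70% RWC, whose log2 difference ran from -1.84 to -1.04 when single libraries were left out and was not called without 70% RWC replicate 2. The synthesis list had 2 genes called higher at 70% RWC, in place of 1, without a filter on low counts (adding Bhs2753_001V1.1) and with replicates 2 and 3 alone (adding Bhs1929_008V1.1). With lists by KEGG match, 2 of 18 tested synthesis genes were higher and 16 lower at 10% RWC against hydrated leaves. Of all tested genes, 42.4% were higher and 41.5% lower there. At 70% RWC 1 was higher and 15 lower, beside 34.6% and 35.9%. Of 6 breakdown genes by KEGG match, 1 was lower at 10% against 70% RWC in place of 3 of 8, since that list lacks both stay-green genes. In that comparison 39.6% of all tested genes were lower. With covered in place of whole length, the level was 2179 CPM per kilobase for the cyclase and 48.4 for stay-green protein 1 in hydrated leaves, and 3.91 and 2.99 for Bhs80_031V1.1 at 70% and 10% RWC. The ratio over whole lists was 0.0706, 1.11 and 0.792 in hydrated leaves, at 70% and at 10% RWC. Scaling by total counts shifted the median of all genes by -0.10 on the log2 scale at 70% RWC and turned no direction among the 6 genes. Counts of called genes over all tested genes were within 1.5 times the main counts in every alternative. The labels do not say that a replicate number marks a shared source, and the correlation of same-numbered deviations was 0.0694 to 0.293, not above 0.1 in every pair, so the numbers were not taken as pairs. The replicate 1 libraries did deviate together across states (0.239 to 0.293), and not every library correlated best with its own number. With a replicate block, 10928, 12621 and 11728 genes were called in place of 10284, 12235 and 11194, with no call among the 6 genes changed (Bhs80_031V1.1 at 10% against 70% RWC, log2 -1.52, edgeR adjusted p = 0.0112). Depth limits Bhs80_031V1.1, with 3 reads per library at 10% RWC, more than the other genes.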

Other observations

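Of 5 genes of the haem branch and its control, 1 rose and 4 fell at 70% RWC, and 2 rose and 2 fell at 10% RWC against hydrated leaves, beside 34.6% and 35.9% of all tested genes at 70% RWC and 42.4% and 41.5% at 10% RWC. Ferrochelatase Bhs105_026V1.1, chosen after its values were seen, puts iron, not magnesium, into the porphyrin and so leads to haem. It rose from 18.8 ± 2.55 CPM in hydrated leaves to 33.5 ± 1.78 at 70% RWC and 69.0 ± 4.31 at 10% RWC (log2 1.88 ± 0.10 at 10% RWC, edgeR adjusted p = 9.46e-12). The genes named heme oxygenase 1, which opens the haem ring, differed: Bhs3997_019V1.1 went from 74.9 ± 2.04 to 51.5 ± 1.39 and 29.5 ± 3.17 CPM, while Bhs794_002V1.1, likewise chosen after its values were seen, went from 2.57 ± 0.366 to 1.43 ± 0.676 and 12.4 ± 1.42 CPM. A GLK1-like gene, Bhs1846_001V1.1, of a family that activates chlorophyll genes in Arabidopsis, stood at 174 ± 21.5, 100.3 ± 16.4 and 132 ± 18.8 CPM.

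The supply of the tail was tested with 10 genes, of which 2 rose and 6 fell at 70% RWC (34.6% and 35.9% of all tested genes). At 10% RWC 4 rose and 3 fell against hydrated leaves (42.4% and 41.5% of all tested genes). Deoxyxylulose phosphate synthase Bhs6_074V1.1, the entry enzyme of the plastid isoprenoid pathway, went from 59.7 ± 9.44 CPM in hydrated leaves to 32.1 ± 1.81 at 70% RWC and 275 ± 21.0 at 10% RWC. The next enzyme, a reductoisomerase (Bhs200_017V1.1), fell from 349 ± 13.999 to 114 ± 2.08 and 242 ± 10.7 CPM. Phytol kinase Bhs45_153V1.1, chosen after its values were seen, which lets freed phytol be used again, was not called at 70% RWC (log2 -0.16, edgeR adjusted p = 0.0584) and rose to 97.2 ± 2.62 CPM from 71.1 ± 2.94 CPM at 10% RWC.

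Genes found by KEGG match alone, named after their values were seen, were a magnesium-protoporphyrin methyltransferase, Bhs40_091V1.1 (48.6 ± 6.47, 9.14 ± 2.57 and 7.71 ± 1.29 CPM), a porphobilinogen synthase, Bhs448_030V1.1 (283 ± 13.4, 269.8 ± 6.24 and 416 ± 15.5 CPM), and a uroporphyrinogen decarboxylase, Bhs1167_023V1.1 (83.4 ± 4.95, 32.9 ± 0.903 and 22.3 ± 2.40 CPM). Another gene with a chlorophyll synthase match, Bhs3505_002V1.1, is described as a wall-associated receptor kinase.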
